A study of Mus musculus with 4 samples.

Results

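The mRNA levels of 49 genes encoding histone-modifying enzymes and Polycomb proteins were compared between intestinal stem cells (ISCs) of young and old mice. The genes were taken by symbol from a table of 52459 genes and grouped by activity into 15 Polycomb genes, 11 methyltransferases, 8 demethylases, 7 acetyltransferases and 8 deacetylases. ISCs were sorted with the SM6 strategy, which uses 6 surface markers, from wild-type C57/Bl6 mice for which the labels name no treatment, and the study's methods give the animals as female. The 2-month (ISC_2mth, young) and 22-month (ISC_22mth, old) groups each held 2 libraries, and each library came from RNA of a pool of 5 animals. Full-length transcripts were sequenced after a single primer isothermal amplification (SPIA) of the RNA, without molecular identifiers.

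Post-translational marks on histone tails set how accessible a gene is to the transcription machinery, and each mark has enzymes that write it and enzymes that remove it. Polycomb repressive complex PRC2 methylates histone H3 at lysine K27, PRC1 ubiquitinates histone H2A, and together they hold developmental genes silent. Acetyltransferases and most of the H3K4, H3K36 and H3K79 methyltransferases act at transcribed genes and enhancers, H3K9 methyltransferases build silent chromatin, and deacetylases act mainly within corepressor complexes. In the intestinal crypt, Polycomb activity is known to sustain stem and progenitor cells and to restrain lineage genes.

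The 4 libraries held 11662654 to 15975698 counts, of which 3852178 to 4593004 lay outside mitochondrially encoded genes. Mitochondrially encoded genes took 62.6% and 65.7% of counts in the young pools and 73.8% and 72.9% in the old pools. The 49 members had summed counts-per-million (CPM) values, over counts outside mitochondrial genes, of 7336 and 7136 in the young pools and 6650 and 6732 in the old pools. Markers of the labelled cell type were present in every pool, with a summed level over 12 stem cell markers of 2575 to 2713 CPM, scaled from here on by the trimmed mean of M values (TMM), in young pools and 2352 to 2630 in old pools. None of these 12 was called, but 6 had an unadjusted p under 0.05, 5 of them lower in old pools, and their median log2 fold change was -0.20. The summed level of 16 proliferation genes was 1838 to 1888 CPM in young and 1938 to 2122 CPM in old pools, and none of the 16 was called different. Markers of other cell types differed between the ages: 8 enterocyte markers summed to 388 to 519 CPM in young and 804 to 880 CPM in old pools, with 3 of 8 called, and 8 Paneth markers to 722 to 938 and 806 to 2077 CPM, with 2 of 8 called. The Paneth sums overlapped, with 2077 CPM in old pool 1 and 806 CPM in old pool 2. The sums of 16 leukocyte genes were 15.3 to 16.4 and 24.4 to 24.6 CPM, with 2 of 3 tested called, and with 6 of the 16 at 0 in every pool (among them Cd3g, Cd4, Cd79a, Itgax and Adgre1), and those of 11 stroma and endothelium genes were at most 1.56 CPM. Goblet markers summed to 1849 to 2443 and 1973 to 2506 CPM, enteroendocrine markers to 41.3 to 153 and 94.8 to 130 CPM, tuft markers to 3.04 to 4.97 and 5.24 to 8.40 CPM with 1 of 3 tested called, and immediate early genes to 129 to 169 and 99.0 to 127 CPM with 2 of 9 tested called and 8 of 9 lower. The part of these shifts in the results that follow was not tested, and in bulk libraries fewer cells of a type cannot be told apart from less RNA per cell.

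No member passed an adjusted p of 0.05 (edgeR's quasi-likelihood test, Benjamini-Hochberg over all 13692 genes tested), against 2.26% of all genes tested. All 49 entered the test, and 48 of them were over the filter on low counts in all 4 pools. The exception was Cbx8, which passed through 1 young pool. By unadjusted p under 0.05, 9 of 49 members (18.4%) differed, against 16.9% of all genes, and limma voom and DESeq2 also called 0 members after adjustment, while edgeR's likelihood ratio test called 1 (Kdm2b). Of these 9, 8 were lower in old ISCs (16.3% of members, against 7.65% of all genes) and 1 was higher (2.04%, against 9.26%). The pools of the 2 ages did not overlap for 24 of 49 members (49%), against 47.6% of all genes. The shares for unadjusted p in either direction and for pools without overlap lie near those of the whole table. The split by direction differed from it, and that difference was not tested.

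Fold changes were small. The median log2 fold change, old over young, was -0.09 over the members and -0.0049 over all genes, and 33 of 49 members were lower in old pools (67.3%, against 50.5% of all genes), a number that was 48 with scaling to total counts and 25 with offsets for GC content and length. Scaling to total counts moved the median of all genes to -0.50. The excess of lower members also rested on 1 pool: without old pool 1, 24 of 49 were higher and the median was -0.0024, and without old pool 2 the median was -0.16. The 95% confidence interval of the fold change stayed within 2-fold in either direction for 45 of the 49 members, and within 1.41-fold for 22. The intervals of Cbx2, Cbx8, Pcgf1 and Kdm2b reached beyond 2-fold. With 2 pools against 2, an exact permutation test on a single gene cannot give a p under 0.333, so p-values are from the fit across all genes and measure the spread between these pools.

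**Figure D1:**
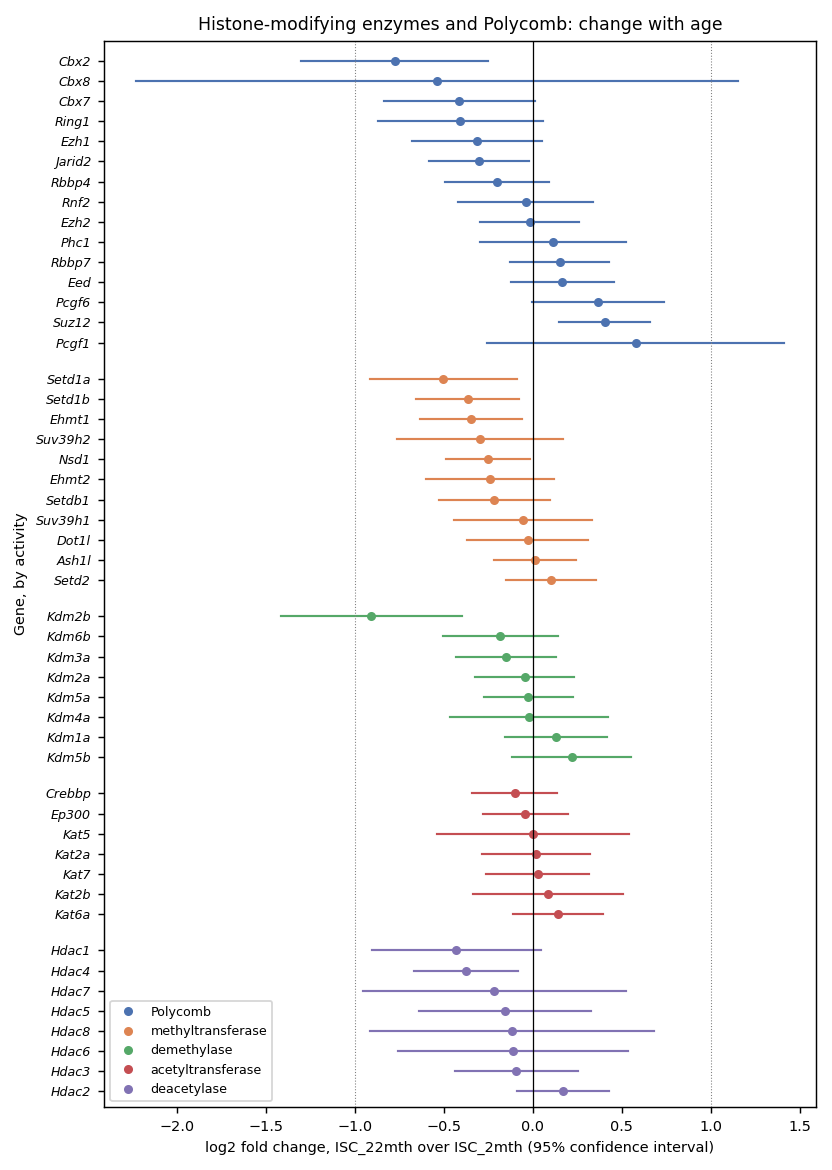
Log2 fold change of each of the 49 members, ISC_22mth over ISC_2mth (x axis), with the 95% confidence interval as a line, ordered within 5 activities (y axis). Dotted lines mark a 2-fold difference. Kdm2b has the lowest value (-0.91) and Pcgf1 the highest (0.58, with the interval spanning 0). The acetyltransferases span the narrowest range, between -0.10 and 0.14. With total-count scaling 48 of the 49 values lie below 0.

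The members with the lowest p in each direction were Kdm2b (lower in old pools) and Suz12 (higher), and their promoters are shown because the product of Kdm2b is known to bind unmethylated CpG dinucleotides and to bring a variant PRC1 to CpG islands, the class of promoter that Polycomb complexes occupy. Kdm2b itself has an upstream and an internal start region. RefSeq lists 2 starts in each, and the more upstream start of each pair is shown. The long form carries the demethylase domain and the short form lacks it, and counts per gene do not separate them. The 200 bases before each start follow, 5′ to 3′ on the gene's strand (RefSeq, GRCm38.p6), with every CG in capitals. They are Suz12 at chr11:79992906-79993105 (plus strand, 32 CG), the upstream Kdm2b start at chr5:122989100-122989299 (minus strand, 19 CG) and the internal Kdm2b start at chr5:122900368-122900567 (minus strand, 26 CG).
Suz12: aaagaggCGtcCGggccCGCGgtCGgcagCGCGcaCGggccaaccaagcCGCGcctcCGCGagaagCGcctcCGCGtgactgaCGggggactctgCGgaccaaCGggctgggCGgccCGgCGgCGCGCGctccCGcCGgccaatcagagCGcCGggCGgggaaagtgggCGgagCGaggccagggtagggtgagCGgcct
Kdm2b, upstream start: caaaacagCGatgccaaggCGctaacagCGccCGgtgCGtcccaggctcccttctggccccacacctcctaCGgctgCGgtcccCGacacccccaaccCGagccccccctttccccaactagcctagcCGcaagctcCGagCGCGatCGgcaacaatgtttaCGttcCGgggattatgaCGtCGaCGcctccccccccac
Kdm2b, internal start: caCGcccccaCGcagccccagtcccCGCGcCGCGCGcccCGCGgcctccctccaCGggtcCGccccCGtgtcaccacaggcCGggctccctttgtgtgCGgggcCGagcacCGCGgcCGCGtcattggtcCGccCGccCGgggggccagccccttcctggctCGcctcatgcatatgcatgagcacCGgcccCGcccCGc
Of the members, 38 had a promoter entry, with 51 windows running from 250 bases before to 50 after the start. A window was called CpG-rich at an observed over expected CG ratio above 0.6 and a GC content above 50%, counting the sequence CG, which reads the same on both strands. By this measure 44 of 51 member windows were CpG-rich (86.3%), against 64.4% of 12068 windows of genes tested and 33.3% of all 32851 windows. The median member window held 28 CG and the range was 0 to 49, against a median of 20 for genes tested. These are descriptions of sequence, and the methylation of these promoters was not analysed here.

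Among the 15 Polycomb genes, PRC2 and PRC1 subunits lay on both sides of 0. Of the Polycomb genes, 6 were higher and 9 lower in old pools (14 lower with total-count scaling and 9 with GC and length offsets), with a median log2 fold change of -0.04, which was -0.18 with the offsets and from -0.16 (without old pool 2) to -0.00023 (without young pool 1) when 1 pool was left out. None passed the adjusted threshold. By unadjusted p under 0.05, which 16.9% of all genes reached, Suz12 was higher and Cbx2 and Jarid2 were lower.

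Suz12, the scaffold on which the PRC2 core assembles (chromosome 11, 79993106 to 80034123, plus strand, GRCm38), was at 68.6 and 63.7 CPM in the young pools and at 88.0 and 87.1 CPM in the old pools. Both old pools were above both young pools. The log2 fold change was 0.40 (SE 0.12, 95% interval 0.15 to 0.66, edgeR adjusted p = 0.0924), and scaling to total counts turned it to -0.090. Of the catalytic subunits of the same complex, Ezh2 overlapped between the ages and Ezh1 did not. Ezh2, the methyltransferase of dividing cells, was at 60.5, 67.0, 68.4 and 57.4 CPM (young 1, young 2, old 1, old 2), with an interval of -0.29 to 0.26 on the log2 scale that leaves out a difference as large as the estimate for Suz12. Its paralog Ezh1, which predominates in non-dividing cells, was at 21.9 and 18.0 CPM in young and 15.4 and 16.6 CPM in old pools (log2 fold change -0.32, SE 0.17, edgeR adjusted p = 0.372). The estimate for Ezh1 ranged from -0.46 to -0.16 when 1 pool was left out. The other core subunits, namely Eed, which reads the methylated H3K27 mark, and the histone-binding proteins Rbbp4 and Rbbp7, had log2 fold changes between -0.20 and 0.16. Rbbp4 and Rbbp7 are also part of deacetylase complexes.

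Jarid2, an accessory subunit that helps to recruit PRC2, was at 49.5 and 49.04 CPM in young pools and at 36.9 and 42.9 CPM in old pools. The old pools were both below the young pools (log2 fold change -0.30, SE 0.14, edgeR adjusted p = 0.261). Across the 6 PRC2 core genes the split was 3 higher and 3 lower, with a median log2 fold change of 0.07 (-0.03 with GC and length offsets), and all 6 were lower with total-count scaling.

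In PRC1, Cbx2 had the lowest p of the 8 subunits. CBX2 is the chromodomain subunit known for compacting chromatin (chromosome 11, 119022962 to 119031270, plus strand). It was at 7.93 and 8.08 CPM in young pools and at 5.15 and 4.18 CPM in old pools, from 51 to 122 counts a pool. The ages did not overlap, and the log2 fold change was -0.78 (SE 0.25, 95% interval -1.30 to -0.25, edgeR adjusted p = 0.116). Pcgf6, a subunit of a variant PRC1 without a CBX protein, was at 13.0 and 15.97 CPM in young pools and at 18.5 and 18.8 CPM in old pools. Both old pools were above both young pools (log2 fold change 0.36, SE 0.18, edgeR adjusted p = 0.306), a sign that turned to -0.12 with total-count scaling. The chromodomain gene Cbx7 was at -0.41 on the log2 scale, with overlapping pools, and ranged from -0.72 to -0.17 when 1 pool was left out. Cbx8 rests on 5 to 19 counts a pool, and its interval, -2.23 to 1.16, allows a difference of over 2-fold either way. It entered the test only through a young pool, so the sign of its estimate (-0.54) is not interpreted for this gene. The counts of lower genes and the medians still include Cbx8. It is 1 of the 9 lower Polycomb genes and of the 33 lower members. It is also 1 of the 17 lower genes among the 21 members of higher GC content. Of the H2A ubiquitin ligases, Rnf2 (RING1B) was at 13.6 to 16.1 CPM with overlapping ages and a log2 fold change of -0.04, while Ring1 (RING1A) was at 12.3 and 9.21 CPM in young and 7.95 and 8.27 CPM in old pools (log2 fold change -0.41, edgeR adjusted p = 0.365). The estimate for Ring1 ranged from -0.61 to -0.18 when 1 pool was left out. The variant PRC1 gene Pcgf1 rests on 25 to 42 counts a pool (log2 fold change 0.58, interval -0.26 to 1.41), and Phc1, a Polyhomeotic subunit, lay at 0.11. Of Pcgf1's exonic stretches of 50 nucleotides, 15.3% are shared with Gm8930, which had 0 counts in every pool.

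Of the 11 methyltransferases, 9 were lower in old pools (11 with total-count scaling and 7 with GC and length offsets) and 4 (36.4%) had an unadjusted p under 0.05, all lower, against 16.9% of all genes in either direction and 7.65% lower. With GC and length offsets 1 of 11 (9.09%) had an unadjusted p under 0.05, against 13.6% of all genes. The median log2 fold change was -0.24, or -0.13 with the offsets and -0.12 without young pool 1. None passed after adjustment. Setd1a and Setd1b write H3K4 methylation within COMPASS complexes, Ehmt1 (GLP) writes H3K9 methylation, and Nsd1 writes H3K36 dimethylation.

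Setd1b was at 40.8 and 38.1 CPM in young pools and at 30.3 and 30.9 CPM in old pools, without overlap (log2 fold change -0.37, SE 0.14, edgeR adjusted p = 0.181). With the offsets for GC content and length its log2 fold change was -0.13. Setd1a was at 18.8 and 15.2 CPM in young pools and at 13.7 and 10.2 CPM in old pools, also without overlap (log2 fold change -0.50, SE 0.20, edgeR adjusted p = 0.199). With the offsets its log2 fold change was -0.29, and it ranged from -0.73 (without old pool 1) to -0.31 (without old pool 2) when 1 pool was left out. Of Setd1a's exonic stretches of 50 nucleotides, 51.2% are shared with the overlapping gene Gm49388 of the GENCODE vM21 annotation. Gm49388 is not among the genes counted, so reads of either gene over the shared sequence would be counted as Setd1a, whose counts are uncertain. The 2 paralogs thus had estimates of the same sign, and their log2 count ratio overlapped between the ages.

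Ehmt1 was at 41.5 and 39.4 CPM in young pools and at 32.3 and 31.2 CPM in old pools (log2 fold change -0.35, SE 0.14, edgeR adjusted p = 0.200). Nsd1, with 2112 to 3188 counts a pool, was at 216 and 211 CPM in young and 186 and 173 CPM in old pools (log2 fold change -0.25, SE 0.11, edgeR adjusted p = 0.261). Neither gene overlapped between the ages. The partner of Ehmt1, Ehmt2 (G9a), lay at -0.24, Setdb1 at -0.22 and Suv39h2 at -0.30 on the log2 scale, so that all 5 H3K9 methyltransferases had an estimate below 0, Suv39h1 being the nearest to 0 at -0.06. With the offsets, Ehmt2 was at 0.0023. When 1 pool was left out, Suv39h1 reached 0.043, so not all 5 stayed below 0. The ranges were then -0.36 to -0.12 for Ehmt2, -0.36 to -0.084 for Setdb1 and -0.44 to -0.14 for Suv39h2. The H3K36 enzymes Setd2 and Ash1l and the H3K79 enzyme Dot1l lay between -0.03 and 0.10, with overlapping pools.

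Among the 8 demethylases, Kdm2b had the lowest p of all 49 members. Of the 8, 6 were lower in old pools (8 with total-count scaling and 4 with GC and length offsets), 1 had an unadjusted p under 0.05 (12.5%, against 16.9% of all genes), and the median log2 fold change was -0.04. Without young pool 2 the median was -0.15, and without old pool 1 it was 0.05 with 4 of 8 genes higher. Kdm2b removes methyl groups from H3K36 and recruits a variant PRC1 through PCGF1 (chromosome 5, 122870665 to 122989823, minus strand). It had 121 and 166 counts in the young pools and 69 and 62 in the old pools, or 8.35, 11, 5.22 and 5.08 CPM. Both old pools were below both young pools. The log2 fold change was -0.91 (SE 0.24, 95% interval -1.42 to -0.40, edgeR adjusted p = 0.0564), and over 17 alternative settings it kept its sign, with an adjusted p between 0.00022 and 0.354 that passed 0.05 in 7 of them. In 2 of the 7 a single old pool was left, which is assumed to vary like the young pools. Total-count scaling, which gave the edgeR adjusted p of 0.00022, also passed 32 of the 49 members. Exons of Kdm2b overlap 3 annotated genes, and 826 bases of them lie opposite to exons on the other strand. The main one, Rnf34, had 127 and 131 counts in young and 106 and 75 in old pools. Counting by strand was not stated, so reads of the overlap cannot be told apart. The paralog Kdm2a, with a log2 fold change of -0.05, overlapped between the ages.

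Kdm5b, an H3K4 demethylase, was at 19.7 and 24.2 CPM in young pools and at 26.0 and 25.1 CPM in old pools (log2 fold change 0.22, SE 0.16, edgeR adjusted p = 0.523). With total-count scaling the estimate was -0.27, and it ranged from 0.079 (without young pool 1) to 0.37 (without young pool 2) when 1 pool was left out. Kdm6b (JMJD3), which removes the H3K27 mark that PRC2 writes, was at 31.3 and 29.4 CPM in young pools and at 29.7 and 23.6 CPM in old pools (log2 fold change -0.18, SE 0.15, edgeR adjusted p = 0.584), and at 0.063 with GC and length offsets. Its pools overlapped between the ages, and the estimate was -0.36 without old pool 1 and -0.027 without old pool 2. Kdm3a, an H3K9 demethylase, was at 48.4 and 45.3 CPM in young and 44.4 and 39.8 CPM in old pools (log2 fold change -0.15, SE 0.13, edgeR adjusted p = 0.603). The remaining demethylases were Kdm1a (LSD1, the flavin-dependent H3K4 enzyme), Kdm4a and Kdm5a, with log2 fold changes between -0.03 and 0.13.

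The 7 acetyltransferases had the narrowest range of fold changes of the 5 activities: no gene had an unadjusted p under 0.05, and every log2 fold change lay between -0.10 and 0.14. Of the 7, 5 were higher and 2 lower in old pools, but all 7 were lower with total-count scaling and none with GC and length offsets, and without young pool 2 only 2 of 7 were higher. The p300 and CBP coactivators, which acetylate histones at enhancers, were among the members with most counts. Crebbp was at 204 and 184 CPM in young pools and at 177 and 184 CPM in old pools (log2 fold change -0.10, SE 0.11, 95% interval -0.34 to 0.14, edgeR adjusted p = 0.702). Ep300 was at 163 and 153 CPM in young and 154 and 153 CPM in old pools (log2 fold change -0.04, SE 0.11, 95% interval -0.28 to 0.19, edgeR adjusted p = 0.889). The ages overlapped for both genes, and with the offsets they stood at 0.026 and 0.022. Kat6a (MOZ) was at 95.7 and 107 CPM in young pools and at 116 and 107 CPM in old pools (log2 fold change 0.14, SE 0.12, edgeR adjusted p = 0.588). Kat2b (PCAF) was at 11.7 and 9.81 CPM in young and 11.2 and 11.5 CPM in old pools (log2 fold change 0.08, SE 0.20, edgeR adjusted p = 0.877). Kat2a (GCN5), Kat5 (TIP60) and Kat7 (HBO1) lay between 0.0013 and 0.03 on the log2 scale, with overlapping pools. Exons of Kat5 lie opposite to 426 bases of Rnaseh2c, which had 129 to 172 counts a pool against 71 to 96 for Kat5, so its counts are uncertain.

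Of the 8 deacetylases, 7 were lower in old pools (8 with total-count scaling and 5 with GC and length offsets), with a median log2 fold change of -0.14, and 1 had an unadjusted p under 0.05 (12.5%, against 16.9% of all genes). The median rested on single pools: it was 0.0013 without old pool 1, with 4 of 8 genes higher, -0.33 without old pool 2 and -0.24 without young pool 2. The gene with an unadjusted p under 0.05 was Hdac4, a class IIa enzyme that shuttles between cytoplasm and nucleus. It was at 39.4 and 36.9 CPM in young pools and at 28.5 and 30.2 CPM in old pools, without overlap (log2 fold change -0.38, SE 0.14, edgeR adjusted p = 0.173). Of its exonic stretches, 21.6% are shared with the antisense gene Gm26720, which had 0 counts in every pool. As the strand setting was not stated, the counts of Hdac4 over this overlap are uncertain.

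The class I paralogs Hdac1 and Hdac2, which occupy the same corepressor complexes, had estimates of opposite sign. Hdac1 was at 8.49 and 9.87 CPM in young pools and at 6.58 and 7.04 CPM in old pools (log2 fold change -0.43, SE 0.23, edgeR adjusted p = 0.352). Hdac2 was at 61.5 and 60.5 CPM in young pools and at 71.9 and 65.3 CPM in old pools (log2 fold change 0.17, SE 0.12, edgeR adjusted p = 0.526), and at -0.32 with total-count scaling and 0.039 with GC and length offsets. Neither gene overlapped between the ages. Of Hdac1's exonic stretches, 35.5% occur in other annotated genes, mostly in Gm10093 with 2 to 7 counts a pool, so its counts are uncertain. Hdac5, of class IIa, was at 8.49 and 7.42 CPM in young and 6.81 and 7.45 CPM in old pools (log2 fold change -0.16, SE 0.23, edgeR adjusted p = 0.785), and at 0.087 with the offsets. Hdac3, Hdac6, Hdac7 and Hdac8 lay between -0.22 and -0.09, each with overlapping pools.

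**Figure D2:**
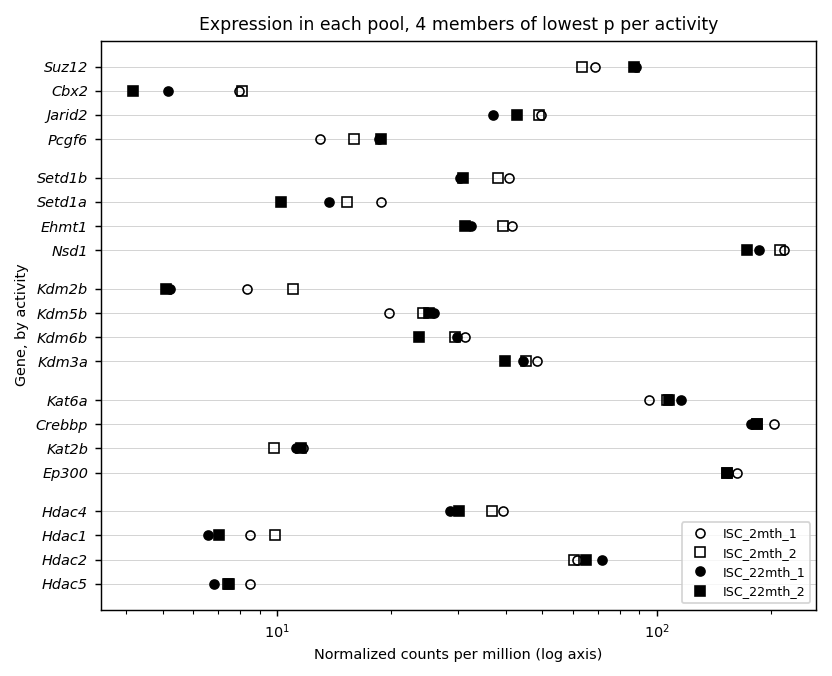
Normalized CPM (x axis, log scale) in each of the 4 pools for the 4 members of lowest p in each activity (y axis). Open symbols are ISC_2mth and filled symbols ISC_22mth, with circles for pool 1 and squares for pool 2. The filled symbols of Kdm2b (5.22 and 5.08) lie left of the open ones (8.35 and 11), and those of Suz12 lie right of them. Open and filled symbols overlap for Crebbp, Ep300 and Kat2b.

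Ratios between paralogs that share a function do not depend on library scaling, but do depend on GC content and length where the paralogs differ in these. Of 11 paralog pairs, 6 had log2 count ratios that did not overlap between the ages. Of all single genes tested, 47.6% did not overlap, so this count is not by itself a result about the pairs. The pair of Hdac1 and Hdac2 had ratios of -2.86 and -2.62 in young pools and -3.45 and -3.21 in old pools, a difference of -0.59 (pooled SD 0.17, n = 2 pools a group). Hdac2 thus had more counts than Hdac1 in every pool, by a wider margin in both old pools. The pair of Kdm2a and Kdm2b had ratios of 3.82 and 3.33 in young and 4.20 and 4.63 in old pools, a difference of 0.84 (pooled SD 0.32). The other pairs that did not overlap were Rbbp4 and Rbbp7 (difference -0.35), Ring1 and Rnf2 (-0.35), Kdm5a and Kdm5b (-0.25), and Suv39h1 and Suv39h2 (0.23). The pooled SD was 0.25 for Rbbp4 and Rbbp7 and 0.20 for Suv39h1 and Suv39h2, close to the differences themselves. Of the exonic stretches of 50 nucleotides, 17.2% of Rbbp4, 11.2% of Rbbp7 and 12.2% of Suv39h1 occur in other annotated genes. Their counts, and the ratios built on them, are uncertain. Leaving out 1 pool moved the differences to between -0.60 and -0.11 for Rbbp4 and Rbbp7, -0.52 and -0.18 for Ring1 and Rnf2, -0.37 and -0.13 for Kdm5a and Kdm5b, and 0.032 and 0.43 for Suv39h1 and Suv39h2. For the first pairs the ranges were -0.72 to -0.47 (Hdac1 and Hdac2) and 0.59 to 1.08 (Kdm2a and Kdm2b). With GC and length offsets, an alternative added after the data were seen, the difference was -0.48 for Hdac1 and Hdac2, 0.78 for Kdm2a and Kdm2b, -0.22 for Rbbp4 and Rbbp7, -0.10 for Ring1 and Rnf2, -0.30 for Kdm5a and Kdm5b, and 0.35 for Suv39h1 and Suv39h2. The ratio of Ezh2 to Ezh1 was 1.46 and 1.90 in young and 2.15 and 1.79 in old pools and overlapped, as did those of Setd1a to Setd1b, Ehmt1 to Ehmt2, Ep300 to Crebbp and Kat2a to Kat2b. Exact permutation on a ratio cannot go under p = 0.333 with these pools.

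Levels between genes were compared as normalized CPM per kilobase of exonic length. By the mean of all 4 pools the highest levels belonged to Rbbp7 (16.6 in young and 18.4 in old pools), Suz12 (13.4 and 17.7) and Hdac2 (13.6 and 15.3), followed closely by Ash1l (14.4 and 14.5) and Crebbp (14.3 and 13.3). By the young mean alone Ash1l and Crebbp were above Suz12 and Hdac2. Suz12, Hdac2, Ash1l and Crebbp overlapped in single pools, as did Rbbp7 and Suz12, so the order of neighbours is not fixed beyond the spread. By the same mean the lowest levels belonged to Cbx8 (0.269 and 0.185), Hdac7 (0.531 and 0.458) and Hdac8 (0.574 and 0.529). Single pools of Hdac7 and Hdac8 overlapped, and the Cbx8 pools lay below every pool of both. Kdm2b was near this end, at 0.890 in young and 0.474 in old pools, and both of its old pools were below those of Hdac8. The exonic length counts all annotated exons of a gene, so a gene expressed from a short form has its level understated.

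**Figure D3:**
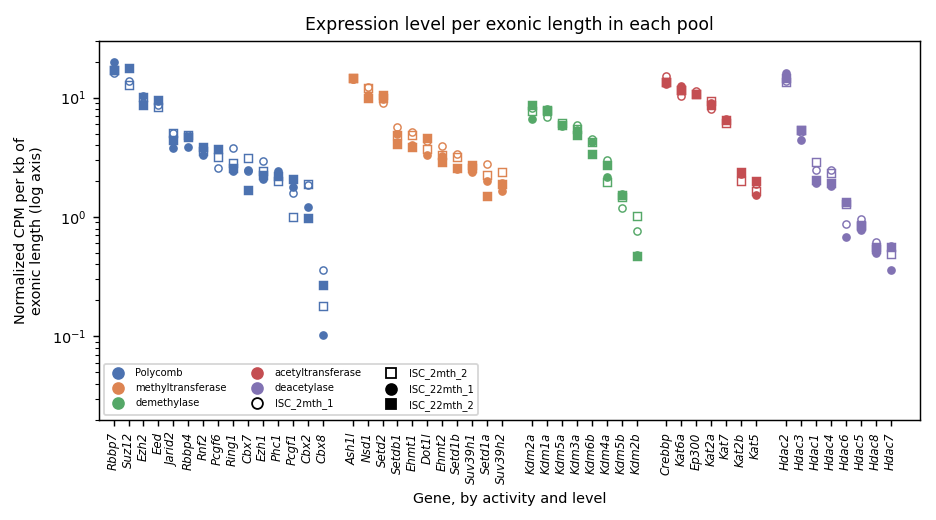
Normalized CPM per kilobase of exonic length (y axis, log scale) of the 49 members in each pool, ordered by level within each activity (x axis). Open symbols are young and filled symbols old pools. Rbbp7, Suz12 and Hdac2 have the highest means over the 4 pools, with Ash1l and Crebbp close to them and above Suz12 and Hdac2 in the young means, Cbx8 is lowest, and Kdm2b is the lowest of the demethylases.

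The members' fold changes were lower at higher exonic GC content. Across the 49 genes, which share the same 4 libraries and are not independent, Pearson's r between log2 fold change and GC content was -0.39 and Spearman's rho -0.46, against -0.16 and -0.22 over 13236 genes with a GC value. Of the 21 members with over 50% GC, a split chosen after the values were seen, 17 were lower and 4 higher in old pools, with a median log2 fold change of -0.22. Of the 28 others, 16 were lower and 12 higher, with a median of -0.03. All genes over 50% GC had a median of -0.11 and the other genes 0.07. Polycomb complexes differ in this property: the median GC content was 44.2% for the PRC2 core and 55.6% for PRC1. With offsets that remove the trend with GC content and length over all genes, the members' median was -0.01 and r was -0.03. Under these offsets 4 of 49 members (8.16%) had an unadjusted p under 0.05, against 13.6% of all genes. Suz12 was then at 0.29 (edgeR adjusted p = 0.292), Cbx2 at -0.61 (0.285) and Kdm2b at -0.80 (0.140). Whether the trend arose in the cells or in amplification and library preparation was not tested.

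**Figure D4:**
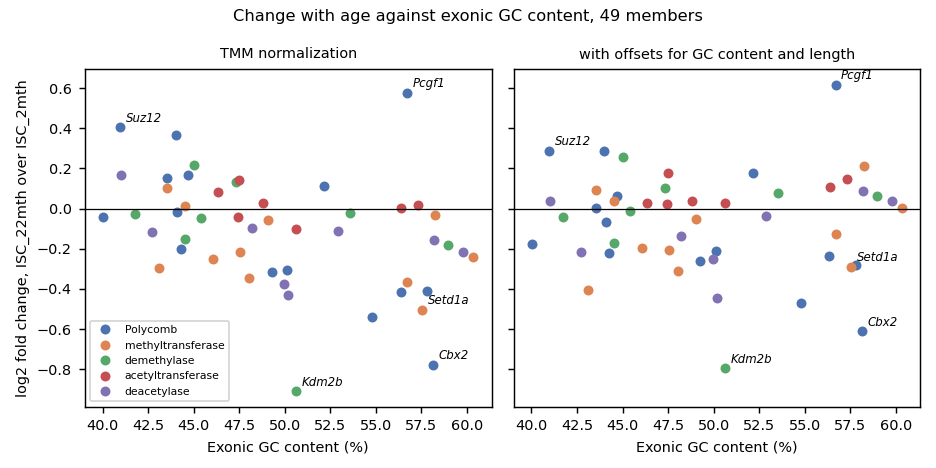
Log2 fold change, ISC_22mth over ISC_2mth (y axis), of the 49 members against exonic GC content in percent (x axis), coloured by activity, without (left) and with (right) offsets for GC content and length. On the left r is -0.39, and on the right, where the offsets remove the trend by construction, it is -0.03. Kdm2b and Cbx2 are the lowest points in both panels.

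A wider set of 137 genes of the same pathways, in 6 lists that hold no member, gave 129 tested genes. Of these, 3 passed the adjusted threshold (edgeR's quasi-likelihood test), 1 higher and 2 lower in old pools, a share near the 2.26% of all genes tested, and 80 were lower and 49 higher (62.0% lower, against 50.5% of all genes, 124 with total-count scaling and 78 with GC and length offsets), with a median log2 fold change of -0.06.

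The called genes described here are Kmt2d and Hat1. Kmt2d (MLL4), an enhancer H3K4 methyltransferase, fell from 160 and 180 CPM in young pools to 120 and 102 CPM in old pools (log2 fold change -0.61, SE 0.12, edgeR adjusted p = 0.0130). Hat1, which acetylates newly made histone H4, rose from 30.1 and 29.0 CPM to 40.5 and 45.8 CPM (log2 fold change 0.54, SE 0.14, edgeR adjusted p = 0.0465). The old pools lay on one side of the young pools for both genes. With GC and length offsets neither stayed called: Kmt2d was at -0.30 (edgeR adjusted p = 0.321) and Hat1 at 0.37 (0.247), and the exonic GC content was 58.3% for Kmt2d and 41.3% for Hat1. Hat1 also missed the threshold with DESeq2 (adjusted p = 0.0922), and Kmt2d did without young pool 2 (0.0638). Hat1 further missed it with total-count scaling (log2 fold change 0.05, adjusted p = 0.806), upper quartile scaling (0.0711) and the stricter filters on low counts (0.0542 and 0.0537), without either young pool (0.178 and 0.177) and without old pool 2 (0.0831).

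By list, 1 of 30 other methyltransferases was called (10 higher, 20 lower), 1 of 23 other acetyltransferases (9 higher, 14 lower) and 1 of 23 other deacetylases and corepressors (10 higher, 13 lower). None was called among 28 other Polycomb genes (11 higher, 17 lower, 5 with an unadjusted p under 0.05), 15 other demethylases (5 higher, 10 lower, 2 with an unadjusted p under 0.05) and 10 shared subunits of COMPASS complexes (4 higher, 6 lower, 1 with an unadjusted p under 0.05) by edgeR. The share of all genes with an unadjusted p under 0.05 was 16.9%, and these 3 lists lie near it or below. In the lists with a call it was 16.7% (other methyltransferases), 17.4% (other deacetylases and corepressors) and 26.1% (other acetyltransferases). Of the other acetyltransferases, 4 were higher by this measure (17.4%, against 9.26% of all genes) and 2 lower (8.7%, against 7.65%). Their log2 fold changes ran from -0.59 to 0.65, a wider range than that of the member acetyltransferases. The median log2 fold changes of the 6 lists lay between -0.07 and -0.05. The gene of lowest p in each list without a call is given next. Yaf2, a partner of RING1 proteins in variant PRC1, was at 5.31 and 5.96 CPM in young and 9.53 and 9.50 CPM in old pools (log2 fold change 0.75, SE 0.23, edgeR adjusted p = 0.0988). Kdm5c, an H3K4 demethylase, was at 37.4 and 34.5 CPM in young and 24.4 and 30.8 CPM in old pools (log2 fold change -0.38, SE 0.15, edgeR adjusted p = 0.200). Hcfc1, a chromatin adaptor of COMPASS complexes, was at 169 and 172 CPM in young and 127 and 140 CPM in old pools (log2 fold change -0.35, SE 0.12, edgeR adjusted p = 0.123). The ages did not overlap for any of these 3 genes. The log2 fold change of Kdm5c was -0.22 without old pool 1 and -0.56 without old pool 2. With total-count scaling Kdm5c and Hcfc1 were called, and without old pool 2 they had edgeR adjusted p-values of 0.0313 and 0.0350. Without old pool 1 these were 0.528 and 0.218, without either young pool 0.276 to 0.638 and 0.338 to 0.437, and with GC and length offsets 0.394 and 0.457.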

How the data were processed

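Raw read counts per gene, deposited by the authors for 4 libraries, were used as they stand. According to the study's methods and the labels, single-end reads were trimmed with Trimmomatic 0.30, aligned with STAR 2.4.2a to GRCm38 and counted with featureCounts over GENCODE exons. The strand setting and the treatment of multimapping reads were not given in the sources used here. The test covered the 13692 of 52459 genes above 5 reads and 1 CPM in any pool. Libraries were scaled by TMM and tested with edgeR 4.0.16 (quasi-likelihood, R 4.3.3), ISC_22mth against ISC_2mth, with Benjamini-Hochberg adjustment at 0.05. CPM are on the TMM scale. Limma 3.58.1 and DESeq2 1.42.0 served as alternatives, as did other scalings and filters, offsets for GC content and length (lowess, 13236 genes), a block on pool number and the omission of each pool. Pool-by-pool values were given for genes that were called, or among the 4 lowest p of an activity or the lowest of a list, and for Ezh1, Ezh2 and Ring1, chosen after their values were seen. The other members are named with fold changes, and 1 called gene of the lists is not reported here. Exonic length, GC content and shared 50-nucleotide stretches came from GENCODE vM21 (GRCm38). The members and lists were chosen with earlier results of these data known. The procedure was tested on simulated counts. Replicate pools differed beyond counting error.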

Additional observations from a re-analysis of the deposited data

How the results depend on the processing

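The count of all genes called (309) was 197 with DESeq2, 611 with edgeR's likelihood ratio test, 4650 with total-count scaling, 554 without a filter on low counts and 109 with offsets for GC content and length, and ranged from 147 to 691 when 1 pool was left out (147 without young pool 1, 280 without young pool 2, 647 without old pool 1, 691 without old pool 2). The count of members called (0) was 32 with total-count scaling, and 1 (Kdm2b) with the likelihood ratio test, with upper quartile scaling and without the filter. It ranged from 0 to 3 when 1 pool was left out (Cbx7, Kdm2b and Setd1a without old pool 1, Kdm2b without old pool 2), and in these fits the lone old pool is assumed to vary like the young pools. Pools of the same number came from different animals, and their deviations from the group means correlated at -0.0031. The labels name no batch, and whether some genes share one by pool number was not tested. With pool number as a block, 623 genes and 1 member, Kdm2b, were called. Kdm2b had an edgeR adjusted p of 0.0212 with the likelihood ratio test, 0.0467 with upper quartile scaling, 0.0264 without the filter, 0.0214 with the block, 0.0438 without old pool 1 and 0.0482 without old pool 2 (range over all alternatives 0.00022 to 0.354).

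The members' median log2 fold change was -0.58 with total-count scaling, where that of all genes was -0.50. Of the 16 members higher in old pools all but Pcgf1 turned below 0 with total-count scaling, among them Suz12 (-0.090), Pcgf6 (-0.12), Kdm5b (-0.27), Kat2b (-0.41), Kat6a (-0.35) and Hdac2 (-0.32). With GC and length offsets the sign turned for Kdm6b (0.063), Ep300 (0.022), Crebbp (0.026), Hdac5 (0.087), Ehmt2 (0.0023), Dot1l (0.21), Kdm4a (0.075) and Hdac7 (0.036). Leaving out 1 pool gave Ep300 -0.093 to 0.0021 and Kat2b -0.042 to 0.21, and also turned the sign of Ezh2, Rnf2, Cbx8, Suv39h1, Dot1l, Kdm2a, Kdm4a, Kat2a, Kat5, Kat7, Hdac3, Hdac6 and Hdac7. The estimate moved by over 1.5 times for Jarid2 (-0.42 to -0.20), Pcgf6 (0.23 to 0.52), Setd1a (-0.73 to -0.31), Kdm3a (-0.23 to -0.077), Kdm5b (0.079 to 0.37), Kdm6b (-0.36 to -0.027), Crebbp (-0.18 to -0.023), Kat6a (0.067 to 0.22), Hdac2 (0.098 to 0.24) and Hdac5 (-0.26 to -0.057). It also did for Ezh1 (-0.46 to -0.16), Ring1 (-0.61 to -0.18), Cbx7 (-0.72 to -0.17) and Pcgf1 (0.28 to 0.94). The same held for Rbbp4 (-0.34 to -0.071), Rbbp7 (0.034 to 0.26), Setdb1 (-0.36 to -0.084), Suv39h2 (-0.44 to -0.14) and Ehmt2 (-0.36 to -0.12). Phc1, Setd2, Ash1l, Kdm1a, Kdm5a and Hdac8 moved as much without a turn of sign. Over the same omissions the members' median ranged from -0.16 to -0.0024. With GC and length offsets the ratio differences of Ehmt1 to Ehmt2 and Ep300 to Crebbp were -0.31 and -0.0043. The cause of these differences was not tested. With at least 10 counts in every library, 48 of 49 members could be tested. Depth limits Cbx8 and Pcgf1 most.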
